A study of Mus musculus with 9 samples.

Results

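The genes described here are 45 that act in mitosis: the Cdk1 kinase and its cyclins, the Aurora and Polo kinases, the chromosomal passenger complex, the spindle checkpoint, the partners of the anaphase-promoting complex, the centromere and kinetochore, the spindle, cytokinesis and the mitotic chromosome. They were chosen by symbol, from their known roles, with earlier results of these data known. Of the 45, 45 had a row among the 21703 rows of a table of RNA-seq read counts from 9 mouse livers. Each of the 3 groups held 3 livers from mice on the C57BL/6J background at 4 weeks of age. The no dox livers came from mice carrying R26-M2-rtTA together with Col-TetOP-Mycl-ires-mCherry that had received no doxycycline. The Mycl 48 h livers came from mice of that same genotype given doxycycline by injection (0.2 ml at 2 mg/ml), and the c-Myc 48 h livers from mice carrying R26-M2-rtTA together with Col-TetOP-c-Myc-ires-mCherry given the same dose, both taken 48 h later. All 9 animals thus carried the reverse tetracycline transactivator M2-rtTA at the Rosa26 locus, which is active in most cell types, so that the transgene was not restricted to hepatocytes. Neither mice given doxycycline without a transgene nor uninduced c-Myc mice were among the samples analysed here, so that the c-Myc comparison with no dox also compares the lines, and doxycycline and transgene cannot be told apart. The question was how far mitotic genes differed between untreated liver, liver with induced Mycl and liver with induced c-Myc, and by how much the rise with one transgene exceeded that with the other.

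A cell enters mitosis when Cdk1, bound to cyclin B and activated by Cdc25 phosphatases, phosphorylates its substrates. The spindle checkpoint then holds the anaphase-promoting complex, an E3 ubiquitin ligase, inactive until every kinetochore is attached, after which Cdc20 activates the complex, securin and cyclin B are destroyed and the chromatids part. Most hepatocytes of a healthy liver are outside the cell cycle and hold little RNA of these genes. Their promoters are known for a cell cycle homology region (TTTGAA or TTTAAA), bound by the MuvB core of the DREAM, B-Myb and FoxM1 complexes, and for CCAAT boxes bound by NF-Y. MYC-family proteins bind, with Max, to E boxes such as CACGTG.

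Both motif classes were common in the promoters of these genes. RefSeq promoters on GRCm38.p6, from 250 bases before to 50 after the annotated start, were matched by symbol for 36 members with 38 entries, and each motif was searched on both strands (TTTAAA is its own reverse complement). TTTGAA or TTTAAA was present in 32 of the 38 (84.2%), against 19.8% of 12782 promoter entries of all genes tested and 27.6% of all 32851 entries. CCAAT was present in 29 (76.3%), against 37.5% and 37.4%. Both classes together were found in 28 (73.7%), against 7.6% and 10.7%. The E box CACGTG was in 2 (5.26%; Anln and Ttk), against 9.68% and 7.15%. In 27 of the 38 a TTTGAA or TTTAAA lay within 50 bases of the start (71.1%, against 8.28% of all entries). The promoters of Nuf2, Nusap1, Melk, Mad2l1 and Pttg1 held neither TTTGAA or TTTAAA nor CCAAT in this window. For Pttg1 the window (43425932 to 43426231) lay inside the gene, whose 5′ end is at 43426251 in the GENCODE annotation. The windows of Kif2c (117178723 to 117179022, 5′ end of the gene at 117182639) and Cdca8 (124936868 to 124937167, 5′ end at 124939311) also lay inside the gene. For these genes the bases before the 5′ end were not searched. Of 22862 genes with a single entry, 74.7% had the RefSeq start at the 5′ end of the gene. Of the members with a promoter, 30 genes held TTTGAA or TTTAAA and had a median log2 fold change of 1.84 with Mycl and 2.78 with c-Myc, both against no dox. The 6 genes without it had medians of 1.92 and 2.69. The medians of genes with and without these letters lay close together in both comparisons, and their difference was not tested. Aurkb, Smc4, Cdc25c, Incenp, Kif20a, Tpx2, Foxm1, Ccna2 and Spc24 had no entry.

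The sequences below run from 200 bases before to 30 after the RefSeq start on GRCm38.p6, 5′ to 3′ on the gene's strand, with TTTGAA or TTTAAA (or the reverse complement TTCAAA) and CCAAT (or ATTGG) in capitals. Ncapd2 (chr6:125191557-125191786, minus strand), Mki67 (chr7:135716350-135716579, minus), Top2a (chr11:99024160-99024389, minus) and Smc2 (chr4:52439021-52439250, plus) are the 4 most abundant members with both motif classes. Cdk1 (chr10:69352883-69353112, minus) and Ccnb1 (chr13:100786457-100786686, minus) are shown as the kinase and cyclin that start mitosis, and Pttg1 (chr11:43425952-43426181, minus) as the member that fell; these 3 were picked after their values were seen.
Ncapd2: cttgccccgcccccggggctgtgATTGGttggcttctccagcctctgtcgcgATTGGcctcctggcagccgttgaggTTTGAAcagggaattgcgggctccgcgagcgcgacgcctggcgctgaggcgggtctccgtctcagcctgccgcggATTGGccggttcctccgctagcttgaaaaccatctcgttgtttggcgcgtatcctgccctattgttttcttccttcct
Mki67: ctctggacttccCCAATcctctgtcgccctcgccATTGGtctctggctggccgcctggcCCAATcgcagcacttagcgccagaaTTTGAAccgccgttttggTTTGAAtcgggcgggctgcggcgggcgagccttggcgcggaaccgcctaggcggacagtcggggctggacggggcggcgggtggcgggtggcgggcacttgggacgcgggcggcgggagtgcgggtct
Top2a: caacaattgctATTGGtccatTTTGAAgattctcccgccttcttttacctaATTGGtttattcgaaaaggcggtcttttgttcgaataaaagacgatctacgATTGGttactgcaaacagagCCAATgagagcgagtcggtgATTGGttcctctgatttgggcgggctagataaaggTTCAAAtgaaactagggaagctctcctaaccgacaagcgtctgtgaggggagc
Smc2: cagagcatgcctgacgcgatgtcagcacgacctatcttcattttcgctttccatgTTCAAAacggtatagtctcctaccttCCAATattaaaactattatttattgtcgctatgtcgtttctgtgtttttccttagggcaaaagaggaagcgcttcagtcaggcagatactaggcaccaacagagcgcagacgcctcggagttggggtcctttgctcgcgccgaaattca
Cdk1: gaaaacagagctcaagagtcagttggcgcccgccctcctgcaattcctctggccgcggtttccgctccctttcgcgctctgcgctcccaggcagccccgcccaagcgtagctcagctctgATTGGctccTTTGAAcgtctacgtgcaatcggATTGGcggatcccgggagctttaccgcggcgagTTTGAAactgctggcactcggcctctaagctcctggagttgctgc
Ccnb1: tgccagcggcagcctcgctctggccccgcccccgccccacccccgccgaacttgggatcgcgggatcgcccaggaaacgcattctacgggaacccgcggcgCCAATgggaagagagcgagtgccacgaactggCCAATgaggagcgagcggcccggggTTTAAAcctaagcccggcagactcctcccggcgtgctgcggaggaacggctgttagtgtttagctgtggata
Pttg1: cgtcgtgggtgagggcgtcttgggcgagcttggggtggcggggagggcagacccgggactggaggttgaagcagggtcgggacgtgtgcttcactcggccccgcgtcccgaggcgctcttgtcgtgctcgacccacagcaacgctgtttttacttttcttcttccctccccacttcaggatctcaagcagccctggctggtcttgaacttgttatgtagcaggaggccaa
Top2a and Cdk1 each carry 2 copies of the TTTGAA class in the stretch shown, and Ccnb1 a TTTAAA. Pttg1, whose stretch lies inside the annotated gene, has no capital letters. The condensin gene Ncapd2 carries both classes.

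The libraries held 11013412 to 20079232 counts. Levels are given as CPM, that is, counts per 1000000 after scaling each library by TMM factors, and a change is called higher or lower at an adjusted p under 0.05 in edgeR's quasi-likelihood test over 12651 genes. All 45 members passed the filter on low counts, 33 of them at or above its cutoff in every control (0.607 CPM before TMM scaling). The other 12 were below it in at least 1 control and so passed only with the help of induced livers. Melk was the 1 member below it in every control. The counts and medians below keep these 12 members. The reporter IRES-mCherry was at 0.316 to 1.09 CPM in the no dox livers, 52.3, 146 and 270 CPM in the Mycl livers and 221, 282 and 76.4 CPM after c-Myc induction. The Mycl gene was at 49.1 to 234 CPM in the Mycl livers and 5.7 to 11.6 CPM in the other 6, and Myc at 81.8 to 270 CPM in the c-Myc livers and 4.05 to 14.2 CPM in the other 6, so that the libraries matched their labels. Nothing in the labels says that the livers of a group came from separate litters or days, and the p-values measure the spread between these samples.

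**Figure D1:**
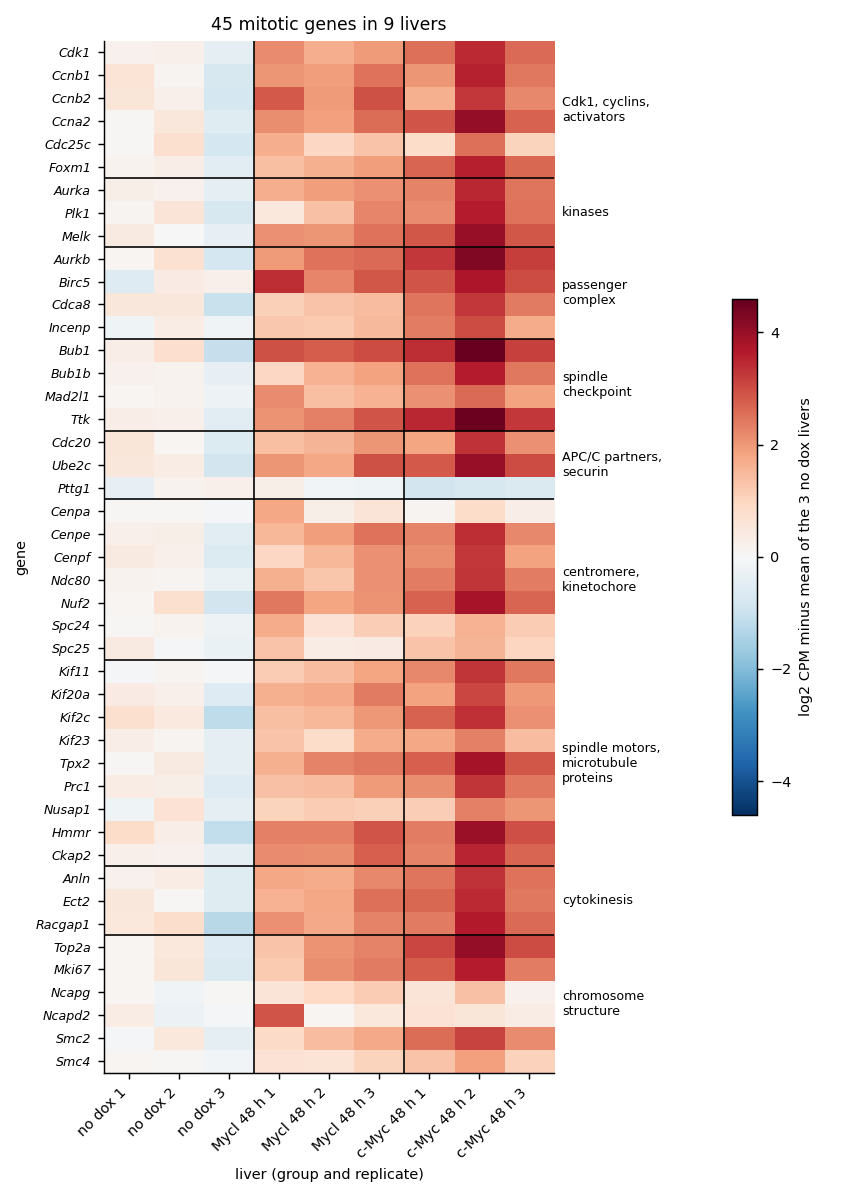
Heat map of the 45 mitotic genes (rows, grouped by role) in the 9 livers (columns), coloured by log2 CPM minus the mean of the 3 no dox livers. The Mycl and c-Myc columns are red for most genes, c-Myc liver 2 is darkest, and Pttg1, Cenpa and Ncapd2 depart from the rest.

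As a group the mitotic genes were higher in every induced liver. The median member stood 0.19, 0.24 and -0.49 (log2 over the mean of the controls) in no dox livers 1 to 3, 1.64, 1.64 and 2.09 in the Mycl livers, and 2.34, 3.35 and 2.41 in the c-Myc livers. The 3 groups did not overlap on this scale. Of the 45 genes, 44, 42 and 43 lay above all controls in Mycl livers 1, 2 and 3, and 44 in each c-Myc liver. c-Myc liver 2 had the highest level of the 9 for 41 members and no dox liver 3 the lowest for 40, and counts without each of these libraries are given below. Mycl liver 1 was the highest for the other 4: Cenpa, Ncapd2, Spc24 and Pttg1. Summed over the members other than Ncapd2, the level was 155 ± 32.2 CPM (SD, n = 3) without doxycycline, 448 ± 73.3 CPM with Mycl and 822 ± 345 CPM with c-Myc. More dividing cells and more of these RNAs in each cell cannot be told apart in whole liver.

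With Mycl, 28 of the 45 mitotic genes rose against no dox and 17 did not pass the test; over all genes tested, 2.24% rose. Their median log2 fold change was 1.83 (range -0.04 to 3.02), against 0.01 over all genes. In 41 members every Mycl liver lay above every control, against 13.2% of all genes; the exceptions were Plk1, Pttg1, Spc25 and Ncapd2. The highest values were those of Birc5, at 3.02 ± 0.42 (log2 ± SE; edgeR adjusted p = 0.0102), or 8.1-fold, and Bub1, at 2.90 ± 0.51 (adjusted p = 0.0211). Bub1 was the higher of the pair in limma-voom and without no dox liver 1, no dox liver 2 or Mycl liver 1. Both were below the filter's cutoff in at least 1 control, with 9 to 17 counts (Birc5) and 2 to 14 counts (Bub1) in the no dox livers. How many members passed depended on single libraries: without no dox liver 1, 2 or 3 the test passed 0, 9 and 4 of them, and without Mycl liver 3 it passed 6, although the median stayed between 1.70 and 1.98 and 41 to 43 members then had an unadjusted p under 0.05. Without c-Myc liver 2, which enters through the shared estimate of spread, 35 passed: the 28 and also Incenp, Bub1b, Cdc20, Cenpf, Racgap1, Ncapg and Smc4 (edgeR adjusted p from 0.0201 to 0.0426). DESeq2 passed 39 and limma-voom 7 on all 9 livers.

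With c-Myc, 40 of the 45 rose and 1, Pttg1, fell; Cdc25c, Cenpa, Ncapg and Ncapd2 did not pass. Over all genes, 11.8% rose and 8.88% fell. The median member changed by 2.78 (range -0.79 to 3.99), against -0.05 over all genes, and 44 members had every c-Myc liver above every control, against 22.6% of all genes. The highest values were those of Ttk, 15.9-fold, or 3.99 ± 0.44 (log2 ± SE; edgeR adjusted p = 0.000548), and Bub1, at 3.86 ± 0.50 (adjusted p = 0.00097), with Bub1 above Ttk in limma-voom and without no dox liver 2. Ttk and Bub1 were both below the filter's cutoff in at least 1 control, with 5 to 15 and 2 to 14 counts in the no dox livers. Leaving out any 1 library left 39 to 43 members higher, and 39 of the 41 passed under every such omission. The comparisons of Mycl and of c-Myc with no dox share the same 3 controls, and their values are set side by side below without being counted as independent.

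**Figure D2:**
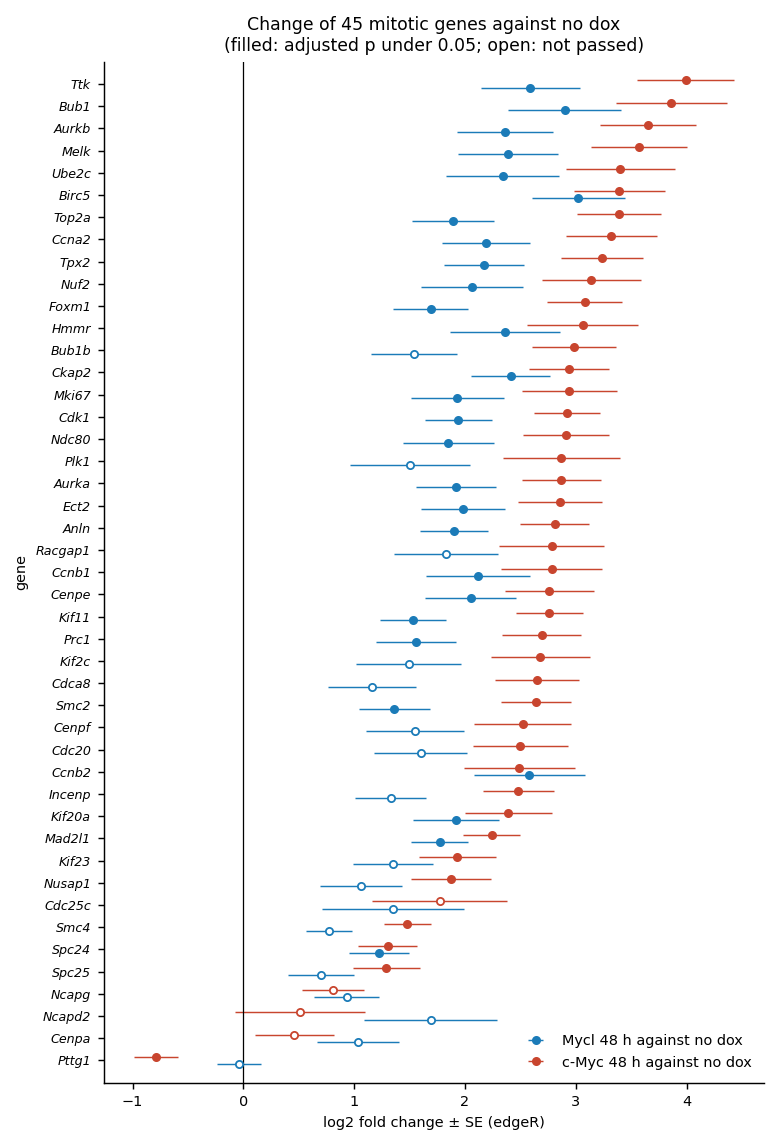
Log2 fold change ± SE of each mitotic gene (rows) against the no dox livers, for Mycl (blue) and c-Myc (red); filled points passed edgeR's test at an adjusted p under 0.05. Most red points lie to the right of the blue ones, up to 3.99 for Ttk, and Pttg1 is at -0.04 and -0.79.

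In the class of Cdk1, its cyclins and activators, 5 of 6 rose with Mycl (median 2.03) and 5 of 6 with c-Myc (median 2.85). Cdk1, the kinase that drives entry into mitosis, was at 3.56, 3.67 and 2.31 CPM in the no dox livers, 14.5, 10.1 and 12.4 CPM with Mycl, and 18.4, 35 and 19.4 CPM with c-Myc. Its 3 groups did not overlap, and it rose 3.83-fold with Mycl (edgeR adjusted p = 0.0116) and 7.57-fold with c-Myc (adjusted p = 0.000436). Ccna2, cyclin A2, which acts in S phase and early mitosis, was at 2.96, 4.11 and 1.91 CPM, then 12.9, 10.8 and 17.6 CPM with Mycl and 22.1, 48.8 and 19.6 CPM with c-Myc, again without overlap. Foxm1, the transcription factor that joins MuvB at late cell cycle genes, was at 1.59, 1.77 and 0.955 CPM, 3.79, 4.61 and 5.67 CPM with Mycl, and 9.56, 18.1 and 9.31 CPM with c-Myc. Every c-Myc liver was above every Mycl liver, and Foxm1 was one of 8 members to pass in the direct comparison. Of the B-type cyclins, Ccnb1 rose 4.34-fold with Mycl and 6.85-fold with c-Myc, and Ccnb2 rose 5.98-fold and 5.63-fold. Ccnb2 stood at 1.64, 1.26 and 0.557 CPM without doxycycline, 8.22, 4.45 and 8.9 CPM with Mycl and 3.59, 11.2 and 5.39 CPM with c-Myc. Its 2 induced groups overlapped. Cdc25c, the phosphatase that activates Cdk1, was the least abundant member per kilobase of transcript (0.157 CPM per kb in the controls) and was at 0.159 to 0.696 CPM without doxycycline, 0.813 to 1.45 CPM with Mycl and 0.761 to 2.72 CPM with c-Myc. Both induced groups lay above the controls, at 1.35 ± 0.64 and 1.77 ± 0.61 (log2 ± SE), without passing the test (edgeR adjusted p = 0.268 and 0.0651). With c-Myc it passed when libraries were scaled by their totals (2.17, adjusted p = 0.0294), in DESeq2 (1.84, adjusted p = 0.0258) and without Mycl liver 1 (1.81, edgeR adjusted p = 0.0448) or c-Myc liver 3 (2.02, adjusted p = 0.0499), and was at 0.96 without c-Myc liver 2.

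Among the other mitotic kinases, Aurka and Melk rose with both transgenes and Plk1 with c-Myc. Aurka, Aurora A, which acts at the spindle poles, was at 1.92, 1.83 and 1.11 CPM without doxycycline, 5.24, 6.34 and 7.13 CPM with Mycl and 8.09, 18.9 and 9.25 CPM with c-Myc, with no overlap among the 3 groups. Melk, a kinase of dividing cells, was at 0.657, 0.443 and 0.318 CPM, 2.35, 2.22 and 3.17 CPM, and 4.13, 9.3 and 4.12 CPM. It rose 5.25-fold and 11.9-fold (edgeR adjusted p = 0.0249 and 0.000728), and its groups did not overlap either. With 12, 7 and 4 counts Melk was below the filter's cutoff in every control, and it passed the filter through induced livers. Plk1, Polo-like kinase 1, which acts at centrosomes and kinetochores, was at 1.7, 2.34 and 0.875 CPM, 2.17, 4.12 and 7.62 CPM with Mycl, and 7.39, 20.1 and 9.25 CPM with c-Myc. Mycl liver 1 lay inside the range of the controls for Plk1, and the change with Mycl, 1.5 ± 0.54, did not pass (edgeR adjusted p = 0.164), while that with c-Myc, 2.87 ± 0.53, did (adjusted p = 0.0054).

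The chromosomal passenger complex, which corrects faulty attachments of chromosomes and then guides cytokinesis, consists of the kinase Aurora B (Aurkb), its scaffold Incenp, survivin (Birc5) and borealin (Cdca8). With c-Myc 4 of 4 rose (median 3.02), with Mycl 2 of 4 (median 1.85), and in all 4 genes every induced liver lay above every control. Incenp was at 2.41, 3.54 and 2.47 CPM, 6.78, 6.56 and 7.92 CPM with Mycl, and 14.6, 23.1 and 9.31 CPM with c-Myc. Its 3 groups followed one another without overlap. Aurkb was at 0.985, 1.58 and 0.477 CPM, 3.89, 5.75 and 6.28 CPM, and 9.94, 19.9 and 9.31 CPM, rising 5.13-fold and 12.5-fold (edgeR adjusted p = 0.0242 and 0.000657). Birc5 was at 0.493, 1.08 and 0.955 CPM, 9.58, 4.23 and 6.64 CPM with Mycl and 6.85, 12.1 and 7.25 CPM with c-Myc. The 2 induced groups overlapped for Birc5, and their difference was 0.38 ± 0.34 (log2 ± SE; edgeR adjusted p = 0.495). Cdca8 was at 1.86, 1.9 and 0.557 CPM, 2.89, 3.36 and 3.66 CPM, and 7.66, 13.2 and 7.12 CPM; it rose 6.3-fold with c-Myc, and its 2.24-fold difference with Mycl did not pass (adjusted p = 0.141).

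Within the spindle checkpoint, 4 of 4 genes rose with c-Myc (median 3.42) and 3 of 4 with Mycl (median 2.18). Mad2l1, the Mad2 protein that binds Cdc20, was at 4.27, 4.49 and 3.42 CPM, 18.8, 10.8 and 12.6 CPM with Mycl and 17.8, 25 and 15 CPM with c-Myc. Both induced groups lay above the controls and overlapped each other. Bub1b, the checkpoint protein BubR1, was at 2.46, 2.4 and 1.59 CPM, 4.16, 6.67 and 8.04 CPM, and 12.7, 27.2 and 11.8 CPM. Ttk, the kinase Mps1 at the head of the checkpoint, was at 0.821, 0.759 and 0.398 CPM, 3.07, 3.69 and 5.48 CPM, and 8.37, 17.2 and 7.05 CPM. For Bub1b and Ttk the 3 groups stood in order without overlap, and both passed in the comparison of c-Myc with Mycl. Bub1, the kinase that brings checkpoint proteins to the kinetochore, rose 7.46-fold with Mycl and 14.5-fold with c-Myc (edgeR adjusted p = 0.0211 and 0.00097), from 0.159 to 0.885 CPM in the controls.

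Of the partners of the anaphase-promoting complex and securin, 2 rose and 1 fell with c-Myc. Cdc20, the activator of the complex, was at 5.91, 4.3 and 2.55 CPM, 10.6, 12 and 16.7 CPM with Mycl, and 14.3, 40.9 and 17.7 CPM with c-Myc. Ube2c, its ubiquitin-conjugating enzyme, was at 1.04, 0.885 and 0.318 CPM, 3.16, 2.66 and 6.03 CPM, and 5.6, 12.7 and 6.39 CPM. Both genes lay above the controls in every induced liver; with Mycl, Ube2c rose 5.07-fold and the 3.04-fold difference of Cdc20 did not pass (edgeR adjusted p = 0.0718). Pttg1, securin, the inhibitor of separase that the complex destroys at anaphase, was at 10.1, 14.9 and 15.6 CPM without doxycycline, 16, 12.1 and 11.5 CPM with Mycl and 7.33, 7.89 and 8.25 CPM with c-Myc. The Mycl and no dox livers overlapped, and the 3 c-Myc livers lay below all 6 others. Pttg1 changed by -0.79 ± 0.20 with c-Myc (log2 ± SE; edgeR adjusted p = 0.0217), which is 0.579 of the control level, and was the one member to fall. It was also the most abundant member per kilobase in the controls after Ncapd2 (8.09 CPM per kb). The call was lost when libraries were scaled by their totals (-0.43, adjusted p = 0.162) and without no dox liver 2 (-0.66, adjusted p = 0.107), no dox liver 3 (-0.63, adjusted p = 0.109), c-Myc liver 1 (-0.75, adjusted p = 0.0759) or c-Myc liver 2 (-0.75, adjusted p = 0.0862), and glmTreat did not call it against a 1.5-fold threshold (adjusted p = 0.392).

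At the centromere and kinetochore, 6 of 7 genes rose with c-Myc (median 2.52) and 4 of 7 with Mycl (median 1.55). Spc24 and Spc25 form, with Ndc80 and Nuf2, the Ndc80 complex that grips the ends of microtubules. Spc24 was at 7.11, 7.53 and 5.81 CPM, 22.1, 10.7 and 15.2 CPM with Mycl and 14.1, 20.9 and 15.6 CPM with c-Myc, and Spc25 at 8.7, 6.07 and 5.17 CPM, 16.3, 8.24 and 8.53 CPM, and 16.4, 19.6 and 12.9 CPM. The induced groups overlapped for both, and 2 Mycl livers lay inside the range of the controls for Spc25. Ndc80 and Nuf2 rose 3.6-fold and 4.18-fold with Mycl and 7.53-fold and 8.81-fold with c-Myc, whereas Spc24 and Spc25 were 2.32-fold and 1.63-fold higher with Mycl and 2.47-fold and 2.44-fold with c-Myc; the 1.63-fold difference of Spc25 did not pass (edgeR adjusted p = 0.226). Differences between the 4 subunits were not tested. The call of Spc25 with c-Myc (edgeR adjusted p = 0.015) was lost without no dox liver 2 (1.27, adjusted p = 0.0574), no dox liver 3 (1.19, adjusted p = 0.058) or c-Myc liver 2 (1.17, adjusted p = 0.0613) and with glmTreat (adjusted p = 0.0871). Cenpe, a kinesin of the kinetochore, rose 4.15-fold and 6.77-fold, and Cenpf, a large kinetochore protein, rose 5.73-fold with c-Myc and was 2.93-fold higher with Mycl without passing (edgeR adjusted p = 0.0882). Cenpa, the histone H3 variant that marks centromeres, was at 7.28, 7.15 and 6.44 CPM without doxycycline, 24.4, 8.46 and 10.5 CPM with Mycl and 7.5, 12.5 and 8.65 CPM with c-Myc. Every induced liver lay above the controls, but the changes, 1.03 ± 0.37 and 0.46 ± 0.36 (log2 ± SE), did not pass (edgeR adjusted p = 0.155 and 0.41). Without Mycl liver 1 the value with Mycl was 0.49 (adjusted p = 0.242).

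**Figure D3:**
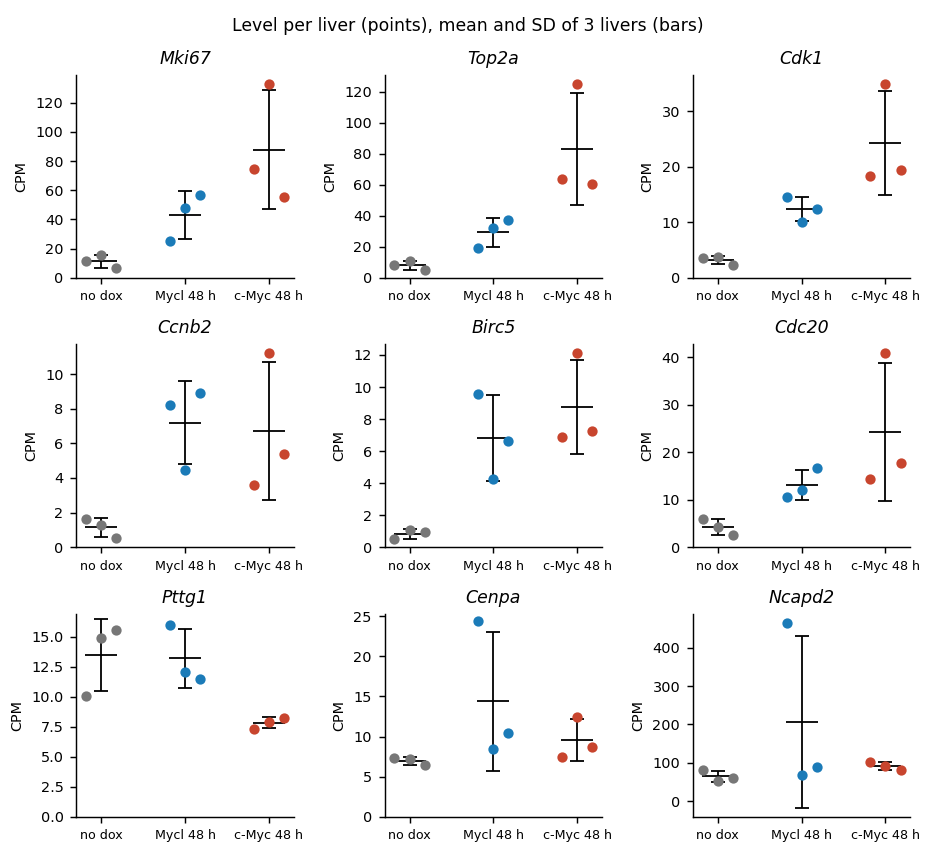
CPM in each liver (points) of 9 mitotic genes, with the mean (long bar) and SD (whiskers) of the 3 livers of each group; panels have their own linear axes. Mki67, Top2a, Cdk1, Ccnb2, Birc5 and Cdc20 lie above the no dox livers in both induced groups, Pttg1 is lowest with c-Myc, and Mycl liver 1 stands apart for Cenpa and Ncapd2.

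Of the spindle motors and microtubule-associated proteins, 9 of 9 rose with c-Myc (median 2.69) and 6 of 9 with Mycl (median 1.56), and in all 9 every induced liver lay above every control. Kif11, the kinesin Eg5 that pushes the spindle poles apart, was at 3.39, 3.86 and 3.26 CPM, 8.04, 9.49 and 12.7 CPM with Mycl and 16.7, 35.1 and 19.4 CPM with c-Myc. Kif20a, a kinesin of the central spindle, was at 4.27, 3.86 and 2.15 CPM, 10.5, 11.3 and 17.6 CPM, and 12.2, 28.9 and 13.5 CPM. Tpx2, which activates Aurora A on the spindle, was at 2.24, 2.85 and 1.51 CPM, 6.96, 11 and 12 CPM, and 15, 31.9 and 16.2 CPM. For Kif11 and Tpx2 the 3 groups did not overlap, while for Kif20a the 2 induced groups did. Ckap2, a spindle protein, and Hmmr, a spindle and hyaluronan-binding protein, rose 5.33-fold and 5.13-fold with Mycl and 7.7-fold and 8.36-fold with c-Myc, and Prc1, which bundles the microtubules of the midzone, 2.95-fold and 6.44-fold. Kif2c (a kinesin that takes microtubules apart), Kif23 (a subunit of centralspindlin) and Nusap1 (a spindle-associated protein) rose with c-Myc by 6.39-fold, 3.82-fold and 3.64-fold. Their differences with Mycl, 2.8-fold, 2.54-fold and 2.08-fold, did not pass (edgeR adjusted p = 0.112, 0.0729 and 0.146).

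For cytokinesis, Anln, the anillin scaffold of the cleavage furrow, was at 2.85, 3.23 and 1.67 CPM without doxycycline, 8.94, 8.46 and 11.9 CPM with Mycl and 14.4, 26.1 and 14.5 CPM with c-Myc. Ect2, the exchange factor that activates RhoA at the furrow, was at 4.76, 3.35 and 2.15 CPM, 10.1, 11.6 and 19.4 CPM, and 21, 36.8 and 17.8 CPM. Racgap1, the other subunit of centralspindlin, was at 3.01, 3.79 and 0.796 CPM, 9.4, 7.43 and 10.9 CPM, and 11.7, 28 and 13.6 CPM. All 3 rose with c-Myc (6.85-fold to 7.25-fold) and 2 of 3 with Mycl, and in each the induced livers lay above the controls. Racgap1 with Mycl was 3.55-fold higher and did not pass (edgeR adjusted p = 0.0666).

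Of the genes of chromosome structure, 3 of 6 rose with Mycl (median 1.52) and 4 of 6 with c-Myc (median 2.06). Mki67, the Ki-67 coat protein of mitotic chromosomes and the usual marker of dividing cells, was at 11.4, 15.9 and 6.68 CPM without doxycycline, 24.9, 47.7 and 56.8 CPM with Mycl and 74.4, 133 and 55.2 CPM with c-Myc. Top2a, the topoisomerase that untangles sister chromatids, was at 8.05, 10.6 and 5.01 CPM, 19, 32.1 and 36.9 CPM, and 63.8, 125 and 60.5 CPM. Both rose with both transgenes, Mki67 3.8-fold and 7.7-fold (edgeR adjusted p = 0.0389 and 0.00162) and Top2a 3.71-fold and 10.5-fold (adjusted p = 0.0281 and 0.000575). The induced groups overlapped for Mki67 and not for Top2a. Smc2 and Smc4, the ATPase core of condensin, which compacts mitotic chromosomes, rose with c-Myc by 6.24-fold and 2.79-fold. Smc2 was at 6.18, 9.04 and 4.77 CPM, 11.8, 17.4 and 22.1 CPM with Mycl, and 39.1, 56.7 and 29.5 CPM with c-Myc, without overlap. Smc4, whose level in the controls was already 20.9 ± 1.55 CPM (SD, n = 3), was 1.71-fold higher with Mycl without passing (edgeR adjusted p = 0.0754). The condensin I subunits Ncapg and Ncapd2 passed in neither comparison with no dox. Ncapg was at 6.51, 5.38 and 6.36 CPM, 9.22, 11.5 and 13.9 CPM, and 9.13, 15.7 and 7.05 CPM, above the controls in each induced liver (0.93 ± 0.29 and 0.81 ± 0.28 on the log2 scale, edgeR adjusted p = 0.108 and 0.0701). Ncapd2 was at 79.8, 52.4 and 60.3 CPM without doxycycline, 465, 67.8 and 87.9 CPM with Mycl and 101, 92 and 80.6 CPM with c-Myc. The value of 465 CPM in Mycl liver 1 stood far above the other 8 livers and gave the group an SD of 224 CPM around its mean of 207 CPM. Without Mycl liver 1, Ncapd2 differed by 0.33 with Mycl (edgeR adjusted p = 0.354) and rose by 0.55 with c-Myc (adjusted p = 0.0305), and Ncapg rose by 0.86 with c-Myc (adjusted p = 0.0329). Ncapg also passed with c-Myc under library totals (1.20, edgeR adjusted p = 0.0203), without c-Myc liver 3 (1.03, adjusted p = 0.0232) and in DESeq2 (0.85, adjusted p = 0.0297). With Mycl it passed in DESeq2 (0.96, adjusted p = 0.0308) and, as given above, without c-Myc liver 2. In limma-voom it passed in neither. Without Mycl liver 2, Ncapd2 passed with Mycl (2.16, edgeR adjusted p = 0.0451). In that same library, 242 tested genes with transcripts under 800 nt, none of them a member, had a median of 1.46 (log2 over the control mean), against 0.26 at most in any other liver, and the small RNA gene Scarna10 lies inside Ncapd2 exons on the same strand (237 bases). Their part in the value of Ncapd2 was not tested.

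Counts of 13 members could be affected by an overlapping gene, since the annotation places another gene on part of their exons. How the counting treated strand is not stated in the labels or files, so that the direction of any effect is not known. The longest overlap was that of Kif20a with Cdc23 on the opposite strand (1271 bases), followed by Ncapg with Lcorl (944 bases) and Prc1 with Rccd1 (911 bases). Cdc23 was at mean levels of 14.5, 15.3 and 15.7 CPM and Lcorl at 24.6, 20.5 and 24.4 CPM in the no dox, Mycl and c-Myc groups. The values of Kif20a, Ncapg, Prc1, Ccna2, Cdc25c, Foxm1, Plk1, Cdca8, Cdc20, Ube2c, Nusap1, Top2a and Ncapd2 are uncertain to that extent, and those of Ccnb1 and Ccnb2 because each has an annotated pseudogene.

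Set directly against Mycl, c-Myc gave higher levels of 8 of the 45 mitotic genes: Foxm1, Cdca8, Incenp, Bub1b, Ttk, Kif11, Top2a and Smc2. Over all genes tested, 4.14% were higher. The median member was 0.95 (log2), or 1.93-fold, higher with c-Myc, with 40 of 45 above 0 and a range from -1.18 for Ncapd2 to 1.5 for Top2a, against a median of -0.03 over all genes. The low end rested on Mycl liver 1, without which Ncapd2 was at 0.22, Cenpa at 0.01 and 43 of 45 were above 0. In 22 members every c-Myc liver lay above every Mycl liver, against 13.7% of all genes, and in Pttg1 every c-Myc liver lay below. The 8 that passed were 2.21-fold (Incenp) to 2.82-fold (Top2a) higher, with edgeR adjusted p from 0.0309 to 0.0478. Top2a was 1.5 ± 0.35 higher (log2 ± SE; edgeR adjusted p = 0.0362). Cdk1 was 1.98-fold and Mki67 2.03-fold higher without passing (adjusted p = 0.0573 and 0.137). Ccnb2, Pttg1, Cenpa, Ncapg and Ncapd2 had values below 0, and did not pass in edgeR (Pttg1 -0.75, adjusted p = 0.0529). DESeq2 called Pttg1 lower (-0.74, adjusted p = 0.0155). By role, the median was highest in the chromosomal passenger complex (1.22), the checkpoint and the mitotic kinases (1.18 each) and lowest in the centromere and kinetochore class (0.71); differences between classes were not tested.

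**Figure D4:**
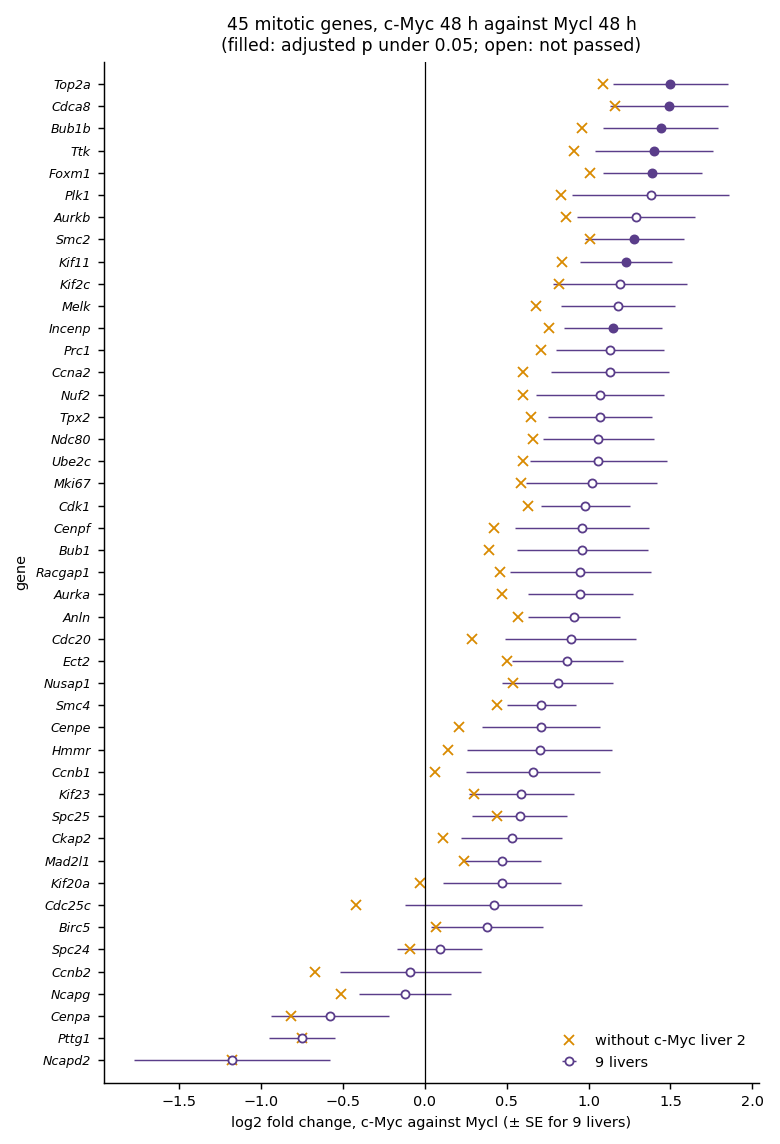
Log2 fold change of c-Myc against Mycl for each mitotic gene, ± SE over 9 livers (circles; filled where edgeR's adjusted p was under 0.05) and without c-Myc liver 2 (crosses). Of the 45 circles 40 lie above 0, and most crosses lie closer to 0 than the circles.

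The margin of c-Myc over Mycl rested in part on c-Myc liver 2. Without that library the median member was 0.50 higher (37 of 45 above 0) and edgeR passed 0 members, although 17 had an unadjusted p under 0.05; the 8 genes then had values from 0.76 (Incenp) to 1.16 (Cdca8) with adjusted p from 0.106 to 0.171. Without no dox liver 1, 2 or 3 the test passed 0, 0 and 3 members, without Mycl liver 1, 2 or 3 it passed 4, 0 and 3, and without c-Myc liver 1 or 3 it passed 0 and 13, with 23 to 34 members at an unadjusted p under 0.05. On all 9 livers DESeq2 passed 20 as higher and 1 as lower, and limma-voom 5 as higher. The reporter levels overlapped between the groups, and c-Myc liver 3 had a lower reporter level (76.4 CPM) than Mycl livers 2 and 3 (146 and 270 CPM) but a higher median member (2.41 against 1.64 and 2.09). The amount of each transgene's protein was not measured, and its part in the difference was not tested.

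Most other genes of the mitotic programme, listed from textbook roles with earlier results of these data known, also rose with c-Myc. Of 86 such genes, 29 rose with Mycl (median 1.36) and 66 with c-Myc (median 2.43), and 20 were higher with c-Myc than with Mycl (median 0.92). When 1 liver was left out these counts ran from 0 to 43, 61 to 72 and 1 to 37, with the fewest without no dox liver 1 for Mycl and without c-Myc liver 1 or 2 for the direct comparison. Cdca5 (sororin, which protects cohesion) rose by 2.31 and 3.87, and Espl1 (separase, the protease that securin inhibits) by 2.05 and 4.48. Espl1 was at 0.328, 0.885 and 0.477 CPM, 1.9, 2.39 and 2.68 CPM, and 9.78, 19.5 and 8.52 CPM, with no overlap, and was 2.43 higher with c-Myc than with Mycl (log2; edgeR adjusted p = 0.0119), while its inhibitor Pttg1 had -0.75. Kntc1 (a checkpoint protein of the kinetochore) rose by 2.88 and 4.31, Mastl (the Greatwall kinase) by 2.17 and 3.04, Pbk (a mitotic kinase) by 3.45 and 4.77 and Depdc1b by 2.44 and 3.03. For these 6 genes both changes passed edgeR's test. All 6 were below the filter's cutoff in at least 1 control, and Depdc1b, with 4 to 5 counts, in every control.

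A further list of 16 genes of the anaphase-promoting complex held core subunits and Ube2s, a ubiquitin-conjugating enzyme that works with it. Of these 16, edgeR passed 0 with Mycl (median 0.32) and 2 with c-Myc, Anapc5 (0.51) and Anapc1 (0.49). With Mycl 5 had an unadjusted p under 0.05, DESeq2 passed 1 and limma-voom 0. With c-Myc DESeq2 passed 4 and limma-voom 1, and 2 of 16 is close to the 11.8% of all genes that rose. Anapc15 and Ube2s were next with c-Myc (0.83 and 0.68, edgeR adjusted p = 0.0577 and 0.0939). Of 12 genes of cohesin and its regulators, edgeR, DESeq2 and limma-voom passed 0 in any comparison, and 1, 2 and 1 had an unadjusted p under 0.05 in Mycl against no dox, c-Myc against no dox and c-Myc against Mycl; with Mycl and c-Myc Stag2 was at -0.26 and -0.28 and Smc3 at -0.07 and 0.43. Among 22 MuvB, DREAM and E2F factors, which control the transcription of mitotic genes, 1 rose with Mycl and 11 with c-Myc. Their medians were 0.06 and 0.55, and over all genes 2.24% and 11.8% rose. Mybl2, B-Myb, the MuvB partner of dividing cells, was at 0.274, 0.379 and 0.159 CPM without doxycycline, 0.813, 0.38 and 0.548 CPM with Mycl and 2.12, 3.6 and 2 CPM with c-Myc. The c-Myc livers lay above all others, at 3.19 ± 0.43 against no dox (log2 ± SE; edgeR adjusted p = 0.00108) and 2.20 ± 0.39 against Mycl (adjusted p = 0.0174), and its change with Mycl, 0.99 ± 0.51, did not pass (adjusted p = 0.303). Mybl2 had 2 to 6 counts in the no dox livers and 7 to 9 with Mycl. It was below the filter's cutoff in every control and passed the filter through induced livers. Rbl1, p107, rose by 1.37 and 2.02. E2f1 and Tfdp1 rose with c-Myc by 2.51 and 1.55, and with Mycl were at 1.17 and 0.28 (edgeR adjusted p = 0.055 and 0.585). E2f7 and E2f8, repressor E2Fs known for their part in hepatocyte polyploidy, rose with c-Myc by 1.75 and 1.71. With Mycl they were at 1.14 and 0.10 without passing. E2f7, with 7 to 12 counts in the no dox livers, was below the filter's cutoff in at least 1 of them. Of 5 CDK inhibitors tested of 7 listed, Cdkn1a, p21, rose by 3.04 with Mycl and 3.07 with c-Myc, and Cdkn2c by 0.87 with c-Myc.

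In S phase, 7 of 15 MCM and replication genes rose with Mycl (median 1.21) and 15 of 15 with c-Myc (median 2.87), and 11 were higher with c-Myc than with Mycl (median 1.5). When 1 liver was left out, 1 to 11, 15 and 2 to 13 passed. The same 3 medians for the 45 mitotic genes were 1.83, 2.78 and 0.95; differences between the lists were not tested. Mcm5, a subunit of the replicative helicase, rose by 2.09 and 3.68, Rrm2, of ribonucleotide reductase, by 1.68 and 3.40, and Cdc6, which loads the helicase, by 2.5 and 4.90. Cdc6 was below the filter's cutoff in every control, with 2 to 9 counts. Leaving out c-Myc liver 2 put the c-Myc to Mycl median of the S phase genes at 1.21 and that of the mitotic genes at 0.50.

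**Figure D5:**
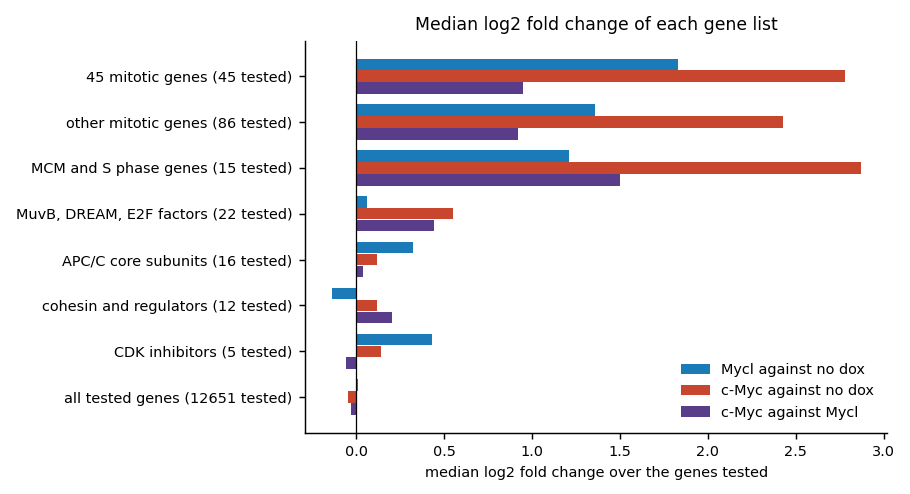
Median log2 fold change of each gene list in the 3 comparisons (bars from 0; number of genes tested in brackets). The 45 mitotic genes had medians of 1.83, 2.78 and 0.95, and all tested genes 0.01, -0.05 and -0.03.

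Markers of liver cells were set beside these values. The summed level of 6 hepatocyte markers was 113582 to 127954 CPM without doxycycline, 72187 to 119235 CPM with Mycl and 56169 to 93185 CPM with c-Myc; edgeR passed 0 of 6 in any comparison. Against no dox, 0 had an unadjusted p under 0.05 with Mycl and 4 with c-Myc, all lower, of which DESeq2 passed 3 and limma-voom 0. The ranges of the no dox and c-Myc sums did not overlap. Erythroid precursors are dividing cells that a liver can hold; their 8 markers summed to 125 to 176 CPM, 49.4 to 129 CPM and 35.5 to 79 CPM, and 2 of 4 tested fell with c-Myc. Rhag was at 0 in every Mycl and every c-Myc liver and Epb42 in every c-Myc liver. The summed level of every c-Myc liver was below that of every control. T cell markers summed to 0.418 to 2.34 CPM over all livers, B cell markers to 1.72 to 5.19 CPM and neutrophil markers to 2.79 to 10.5 CPM, with Ly6g at 0 in every no dox and Mycl liver. These lymphoid and myeloid lists were at low levels throughout. Kupffer cell markers summed to 351 to 412 CPM, 341 to 470 CPM and 207 to 306 CPM, with 1 of 7 higher with Mycl and 2 of 7 lower with c-Myc. Stellate cell markers summed to 351 to 444 CPM, 314 to 645 CPM and 552 to 1063 CPM, and 2 of 5 were higher with c-Myc. Their median log2 fold change with c-Myc was only 0.04 (range -0.65 to 2.84), and 1 was lower at an unadjusted p under 0.05 in edgeR. Over all genes tested, 2.24% rose with Mycl, and 11.8% rose and 8.88% fell with c-Myc. Endothelial markers summed to 315 to 404 CPM, 212 to 343 CPM and 215 to 277 CPM, and those of cholangiocytes to 47.1 to 50.9 CPM, 43.1 to 80.4 CPM and 36.9 to 63.7 CPM. Of the tested markers of B cells, neutrophils, endothelium and cholangiocytes edgeR passed 0; at most 2 of a list had an unadjusted p under 0.05 in any comparison, DESeq2 passed 1 neutrophil marker with Mycl and limma-voom 0. Which cells held the mitotic RNA, and what part these markers' cells had in its rise, was not tested.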

How the data were processed

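RNA was sequenced from 9 mouse livers. The deposited table holds raw counts per gene; per the submitters' processing notes, the authors used cutadapt 3.0, STAR 2.7.8a, HTSeq 0.11.2, DESeq2 1.30.0 and mm10. HTSeq's strand setting is not given in the sources used here, nor is the annotation release. Per the labels' protocols, libraries were made with a directional kit from column-purified RNA. Library totals were 11013412 to 20079232 counts, which set the precision of low genes.

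From the counts, edgeR 4.0.16 (R 4.3.3) was run with filterByExpr at a minimum count of 10, TMM factors, 1 fit over all 9 livers with a mean per group (6 residual degrees of freedom) and Benjamini-Hochberg adjustment over 12651 genes at 0.05. Standard errors were taken from each log2 fold change and its F statistic. The fits were tested on simulated data. Alternatives were other scalings, other filters, DESeq2 1.42.0, limma-voom (limma 3.58.1), glmTreat at 1.5-fold, a replicate block, 6-library fits and leaving out each liver.

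The members and lists were chosen with earlier results of these data known. Every member is named. Values in all 9 livers are given for up to 3 members per role by mean CPM and for the extremes of each comparison. They are also given for Ccnb2, Cdca8, Smc2 and Ncapg, chosen after their values were seen. Of the other lists, genes were named by smallest p. Replicate livers differed by more than sampling noise, so no library was counted as a repeat of another. The deviations of same-numbered livers correlated at -0.187 to 0.314, and those of unlike-numbered livers at -0.271 to 0.188. The ranges overlap, but with 3 livers a group this check cannot exclude pairing. The main fit did not pair the samples.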

Additional observations from a re-analysis of the deposited data

How the results depend on the processing

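The count of mitotic genes higher with Mycl than without doxycycline (28 by edgeR) was 7 with limma-voom, 5 with glmTreat at 1.5-fold and 0 to 35 when 1 liver was left out. The count higher with c-Myc than with Mycl (8) was 18 with scaling by library totals, 20 with DESeq2, 5 with limma-voom, 0 with glmTreat, 0 in a fit of only the 6 libraries compared and 0 to 13 when 1 liver was left out; 17 and 29 members had an unadjusted p under 0.05 with glmTreat and in the 6-library fit. The count higher with c-Myc than without doxycycline (40) stayed at 38 to 43 under every alternative run. Scaling by library totals moved the median of all genes to 0.14, 0.31 and 0.20 (Mycl and c-Myc against no dox, c-Myc against Mycl), and the share of higher calls among all genes from 69.9%, 57% and 61.1% to 83.2%, 90.4% and 86.7%.

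Some values of single genes changed sign. Pttg1 with Mycl was 0.04 with upper-quartile factors, 0.10 with library totals and -0.16 to 0.12 when 1 liver was left out. For c-Myc against Mycl, library totals gave 0.18 for Ccnb2 and 0.15 for Ncapg, and leaving out 1 liver gave -0.67 to 0.22 for Ccnb2, -0.51 to 0.10 for Ncapg, -0.87 to 0.01 for Cenpa, -1.60 to 0.22 for Ncapd2, -0.15 to 0.38 for Spc24, -0.03 to 0.73 for Kif20a and -0.42 to 0.73 for Cdc25c. The cause was not tested. The replicate block gave 22, 40 and 7 members higher in Mycl against no dox, c-Myc against no dox and c-Myc against Mycl. Whether the replicate numbers pair the livers could not be settled from the correlations of same-numbered livers (-0.187 to 0.314). Of the fits for single members under the alternatives, 698 of Mycl against no dox kept the direction and the side of the threshold, 163 lost the call, 32 gained it and 6 changed sign; for c-Myc against no dox the numbers were 877, 11, 11 and 0, and for c-Myc against Mycl 773, 78, 34 and 14. At these depths 12 members had fewer reads than the filter asks for in at least 1 control. Standard errors were also large for some members above it in every control, such as Ncapd2 (0.60 with Mycl) and Plk1 (0.54 with Mycl).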
